A study of Mus musculus with 20 samples.

Results

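The miR-379/miR-410 cluster is a run of microRNA hairpins in the imprinted Dlk1-Dio3 region of the mouse genome, and its levels are described here in the liver of PiZ and wild-type (WT) mice. Members were chosen by name alone: every listed mature miRNA, of either arm, from 38 named hairpins between miR-379 and miR-410. These names matched 65 of the 1509 miRNAs listed in any of the 20 deposited files, from 37 hairpins. Of the 65, 52 were listed in every file and 18, from 16 hairpins, held enough reads to be tested.

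Small RNA was sequenced from the liver of 5 PiZ and 5 WT mice, all C57BL/6 and 6 weeks old, and each library was run 2 times. PiZ mice are transgenic for human alpha-1 antitrypsin in its Z variant, a protease inhibitor of hepatocytes that in this form folds poorly and is held back in the endoplasmic reticulum. The WT mice have no such transgene by their labels. No source used here gives the transgene's promoter, its copy number or the sex of the mice, and the genotype rests on the labels because the transgene's mRNA was not measured. Nothing in the labels ties a mouse of one genotype to a mouse of the other.

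A mature miRNA of either arm is cut from a hairpin, is loaded into an Argonaute protein and lowers the output of mRNAs that pair with its seed, bases 2 to 8. The hairpins of this cluster are cut from long non-coding transcripts made from the maternally inherited chromosome, together with the host RNAs Meg3, Rian and Mirg. The cluster is best known from the embryo, the placenta and the brain, and mice that lack it have trouble keeping up blood glucose just after birth, when the liver must start to make glucose.

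Members with the same seed can pair with the same mRNAs. Mature sequences were found in RefSeq (GRCm38.p6) for 61 of the 65 members and for 16 of the 18 tested. They are printed here, with the seed in capitals, for some pairs of related seeds and for other members that were abundant or changed. Further related pairs exist, such as miR-154-3p with miR-369-3p and miR-379-5p with miR-1193-5p, and are not printed.

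miR-379-5p: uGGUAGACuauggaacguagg

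miR-411-5p: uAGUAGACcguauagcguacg

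miR-379-3p: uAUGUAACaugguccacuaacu

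miR-411-3p: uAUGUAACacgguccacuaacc

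miR-410-3p: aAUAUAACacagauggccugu

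miR-300-3p: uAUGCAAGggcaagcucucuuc

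miR-381-3p: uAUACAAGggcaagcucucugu

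miR-376a-3p: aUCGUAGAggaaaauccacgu

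miR-376b-3p: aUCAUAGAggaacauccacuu

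miR-299a-3p: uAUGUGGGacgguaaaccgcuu

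miR-541-5p: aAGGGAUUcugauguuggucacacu

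miR-409-3p: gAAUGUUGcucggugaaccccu

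miR-154-5p: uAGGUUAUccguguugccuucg

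The 16 tested members with a sequence had 15 distinct seeds. miR-379-3p and miR-411-3p had the same seed and were identical at 20 of 22 positions (U10C and U22C, counted from the 5′ end, miR-379-3p first). miR-379-5p and miR-411-5p differed within the seed by G2A. miR-300-3p and miR-381-3p differed there by G4A and were identical at 19 of 22 positions. The same change, G4A, separated miR-376a-3p from miR-376b-3p, which were identical at 18 of 21 positions, and miR-379-3p from miR-410-3p. No tested miRNA outside the cluster with a RefSeq sequence shared a seed with a tested member (0). How the counting divided reads between such close pairs is not known. In PiZ mouse 4 alone, miR-379-3p (55.5 reads), miR-411-3p (31.5 reads), miR-376a-3p (9.5 reads) and miR-376b-3p (253.5 reads) had counts that were not whole.

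RefSeq gives a position for 35 of the hairpins, on chromosome 12 of GRCm38.p6 (chr12:109709060-109743795, 34.7 kb), and all but miR-299b lie on the plus strand. The deposited files give names and no coordinates. In the GENCODE M21 annotation, 12 of these hairpins lie within the non-coding gene Mirg, 8 in an exon and 4 in an intron. The other 23 lie in no gene of their own strand.

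Depth differed between libraries. Summed over both runs, totals lay between 1307857 (WT mouse 1) and 10780801 reads (PiZ mouse 4), so 1 read was worth between 0.715 and 0.0887 CPM, read counts per 1000000 on scaled library sizes. The files of PiZ mice 1 and 2 and of WT mice 1 to 3 carry a longer list, of 1399 miRNAs, and the other files a shorter list, of 990. For the cluster, PiZ mouse 5 stood apart from the other PiZ mice, and WT mice 1 and 3 were the shallowest libraries. Results are therefore also given without them.

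Cluster reads were more abundant in 4 of 5 PiZ livers than in any WT liver. The summed level of the 52 members was 1012, 783, 2147, 699.9 and 144 CPM in PiZ mice 1 to 5. It was 179, 184, 197, 182 and 202 CPM in WT mice 1 to 5. The WT mice lay close together, PiZ mouse 3 lay far above the rest, and PiZ mouse 5 lay below every WT mouse. The means were 957 ± 738 CPM in PiZ and 189 ± 9.82 CPM in WT (SD, n = 5 each), a ratio of 5.07. The ratio was 6.15 without PiZ mouse 5 and 3.50 without PiZ mouse 3. As a share of all reads, the members made up 0.0123% to 0.233% in PiZ mice and 0.0171% to 0.0230% in WT mice. In whole liver, more RNA per cell and more cells of the kind that makes it cannot be told apart.

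**Figure D1:**
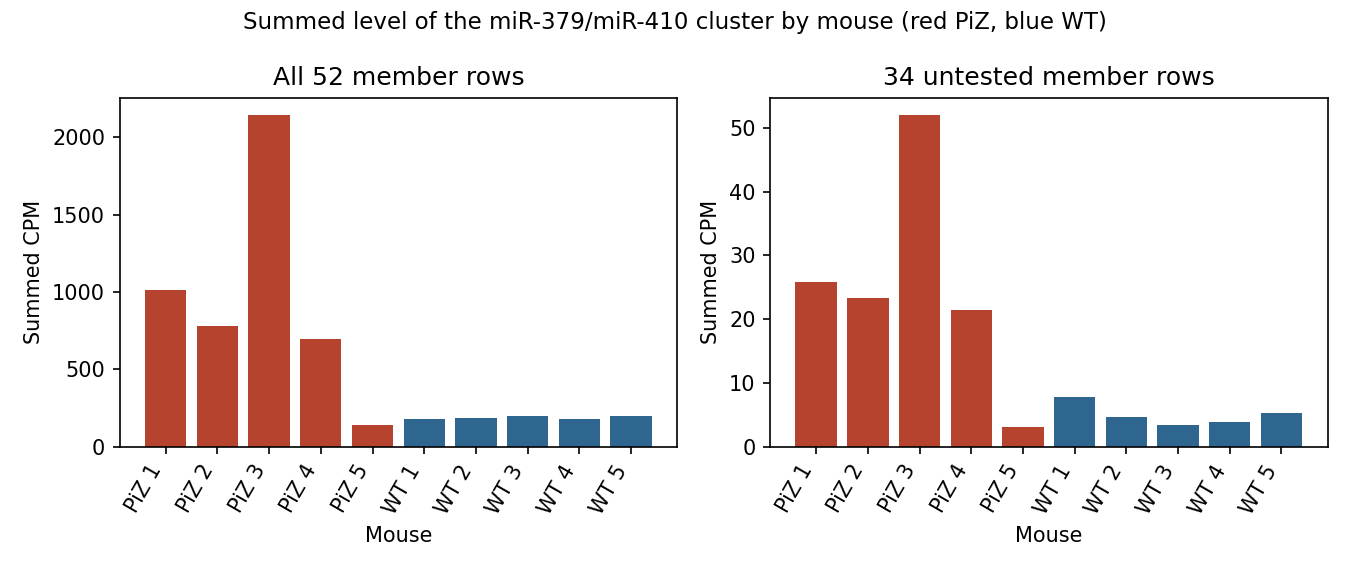
Summed CPM of the cluster in each mouse, for all 52 members listed in every file (left) and for the 34 members too sparse to test (right), with PiZ mice in red and WT mice in blue, 1 bar per mouse. In both panels PiZ mice 1 to 4 stand above all 5 WT mice, PiZ mouse 3 is the highest (2147 and 52.1 CPM) and PiZ mouse 5 lies below every WT mouse.

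All 18 tested members had a positive log2 fold change in PiZ, and 10 of them rose (adjusted p below 0.05, edgeR quasi-likelihood test adjusted over all 336 tested miRNAs). The 10 were both arms of miR-379, miR-411-5p, miR-299a-3p, miR-376b-3p, miR-376c-3p, miR-300-3p, miR-381-3p, miR-485-5p and miR-410-3p. None fell (0), and 17 had an unadjusted p under 0.05. The filter kept a miRNA that reached 2.09 CPM, on unscaled totals, in 3 mice, and 9 of the 18 members had fewer than 3 WT mice at that level, so they entered through PiZ mice and were bound to be higher there. Counts and medians over all 18 are therefore a description only. The 9 members that WT mice alone would have admitted were miR-379-5p, miR-411-5p, miR-376b-3p, miR-300-3p, miR-381-3p, miR-154-5p, miR-541-5p, miR-409-3p and miR-410-3p. All 9 had a positive log2 fold change, from 1.37 to 3.78, and 6 of them rose. Of all 336 tested miRNAs, 28 rose, which is 8.33%. The members' log2 fold changes had a median of 2.45 (range 1.37 to 3.78), beside a median of 0.07 over all tested miRNAs. In no member (0 of 18) were all 5 PiZ mice above all 5 WT mice, beside 22 of all 336 tested miRNAs (6.55%). In 15 members 4 of the 5 PiZ mice were above every WT mouse, and in the other 3 members 3 of the 5 were.

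**Figure D2:**
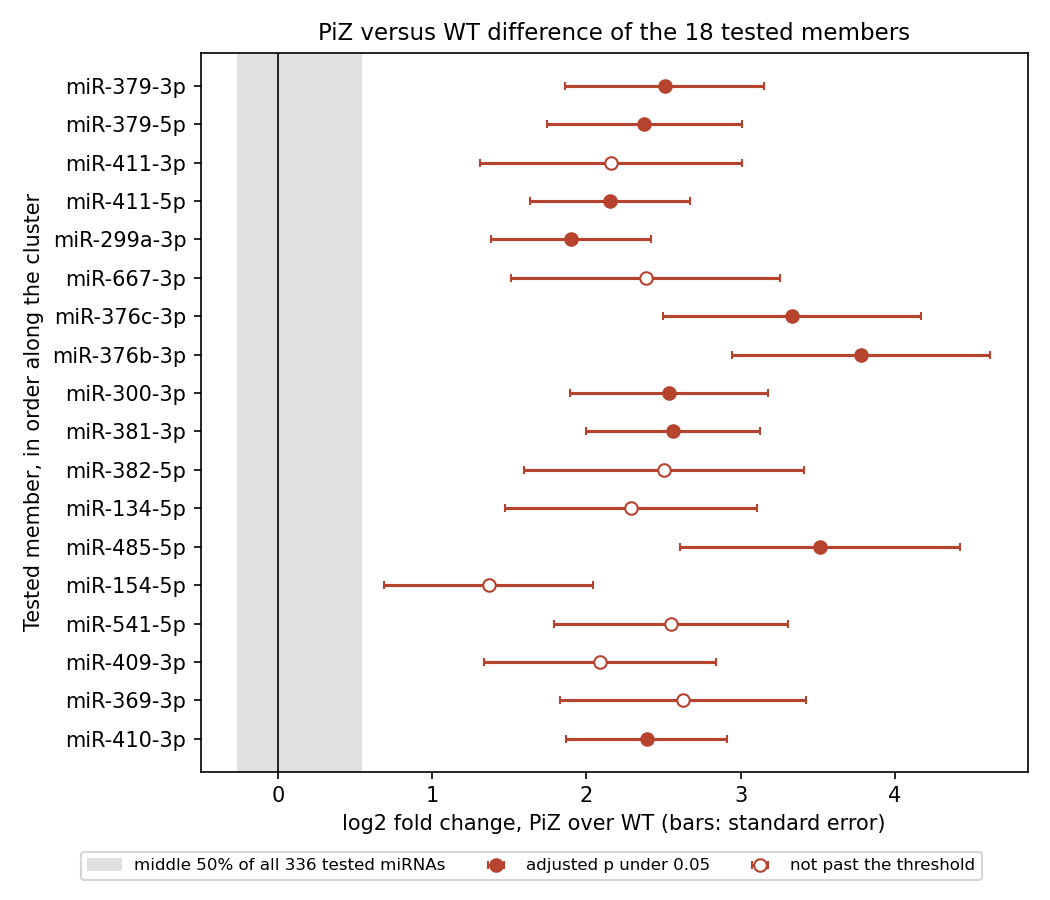
Log2 fold change of each tested member, PiZ over WT, with its standard error from edgeR (5 mice each), in order along the cluster. Filled points passed the adjusted threshold, and the grey band holds the middle 50% of all 336 tested miRNAs. All 18 points lie to the right of the band, from 1.37 for miR-154-5p to 3.78 for miR-376b-3p.

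The number that passed was not stable from mouse to mouse. It was 17 of 18 without PiZ mouse 5, where 45 of all 336 tested miRNAs rose, and 18 of 18 without PiZ mouse 5 and WT mice 1 and 3, where 55 did. It was 0 in edgeR without PiZ mouse 1 or without WT mouse 1, 2, 4 or 5, where 15 or 16 members had an unadjusted p under 0.05 and 7 or 8 of all 336 miRNAs rose. It was 2 without WT mouse 3 (14 of 336), 3 without PiZ mouse 2 and 4 without PiZ mouse 3 (16 of 336 each), and 7 without PiZ mouse 4 (21 of 336). All members tested kept a positive log2 fold change in each of the 27 settings tried. Their median lay between 1.82, without PiZ mouse 3, and 2.85, without PiZ mouse 5 and WT mice 1 and 3. As 9 of the 18 members entered the test through PiZ mice, these counts, signs and medians are a description only.

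**Figure D3:**
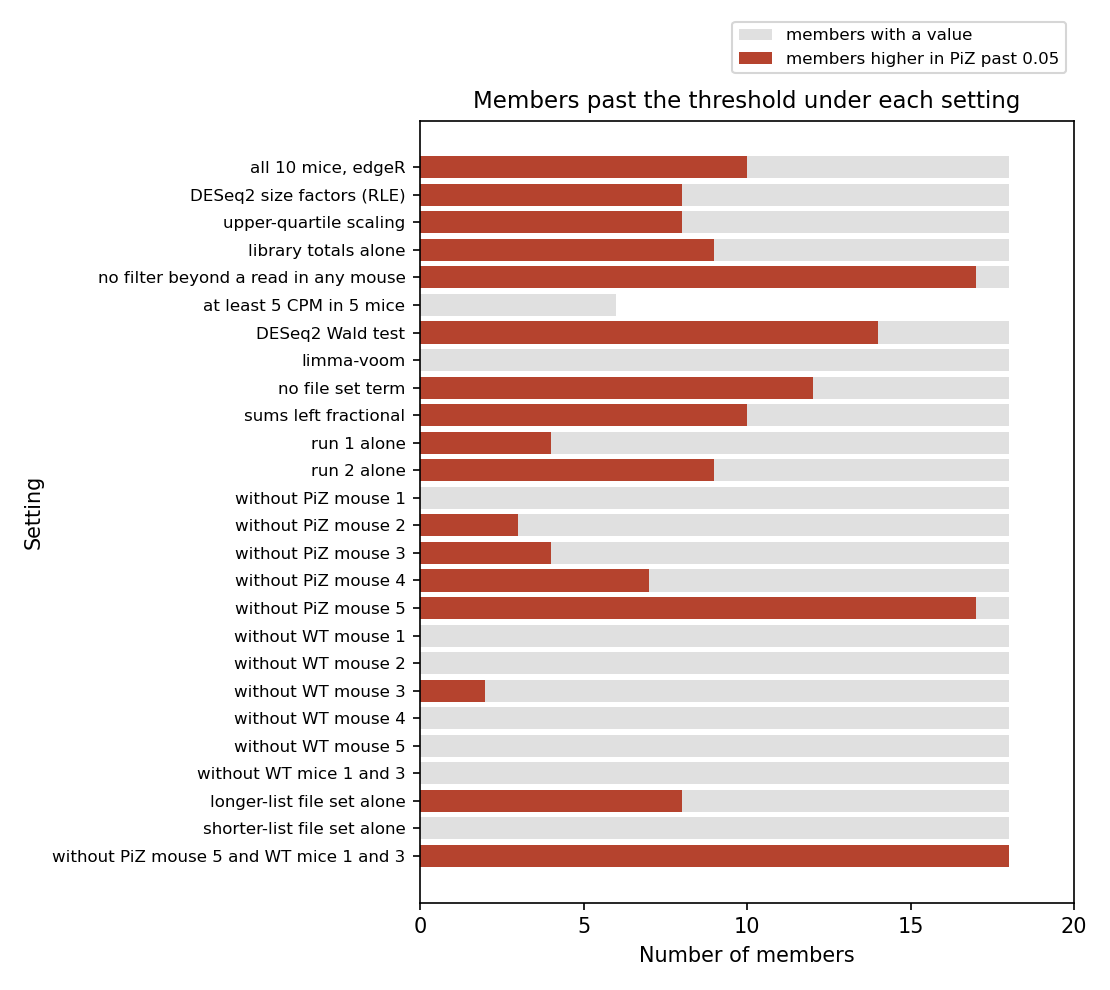
Number of tested members higher in PiZ past the adjusted threshold (red) out of those with a value (grey), for each setting of the test. The count is 10 with all mice, 0 in several settings that leave out 1 mouse, and 17 without PiZ mouse 5.

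The miR-379 hairpin, the first of the cluster, rose on both arms. miR-379-5p stood at 16.8, 15.8, 28.5, 10.2 and 2.15 CPM in PiZ mice 1 to 5 and at 0.715, 2.61, 3.92, 1.97 and 4.12 CPM in WT mice 1 to 5. Its log2 fold change was 2.38 ± 0.63 (SE), with an edgeR adjusted p of 0.0385. PiZ mice 1 to 4 lay above every WT mouse, and PiZ mouse 5 lay inside the WT range. miR-379-3p stood at 14.3, 8.67, 17.7, 4.97 and 1.32 CPM in PiZ and at 0.715, 2.09, 2.80, 1.21 and 1.63 CPM in WT mice. It differed by 2.51 ± 0.65 on the log2 scale (edgeR adjusted p 0.0335), and the groups overlapped in the same way.

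miR-411-5p, whose seed is 1 base from that of miR-379-5p, was the most abundant member in every mouse. It stood at 495, 395, 1088, 363 and 86.8 CPM in PiZ and at 85.1, 106, 115.4, 107.4 and 118 CPM in WT mice. The log2 fold change was 2.15 ± 0.52 (edgeR adjusted p 0.0297). The WT mice spanned a narrow range that held PiZ mouse 5. miR-411-3p, from the other arm, stood at 3.68, 5.52, 12.1, 2.84 and 0.239 CPM in PiZ and at 0, 0.522, 1.12, 1.21 and 1.63 CPM in WT mice. It did not pass (log2 fold change 2.16 ± 0.85, edgeR adjusted p 0.138), with PiZ mouse 5 inside the WT range.

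Both arms of these hairpins could be compared within each mouse, a ratio that does not depend on scaling. The 5p arm gave 62.4% of miR-379 reads in PiZ and 66.0% in WT livers, pooled over the mice of a group. For miR-411 it gave 99.0% and 98.9%. On the log2 scale, the ratio of both arms differed between genotypes by 0.05 ± 0.25 for miR-379 (limma adjusted p 0.931) and by 0.20 ± 0.45 for miR-411 (limma adjusted p 0.798). In limma 0 of these 2 hairpins passed, with 0 at an unadjusted p under 0.05, beside 0 of 64 hairpins in the whole table (0%). No other tool was run for the arms. With a pseudocount of 5 reads in place of 0.5, miR-411 passed, with a difference of 1.03 (limma adjusted p 0.0178). However, miR-411-3p held 0, 1 and 2 reads in WT mice 1 to 3 and 2 in PiZ mouse 5, fewer than the 5 added.

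The miR-376 hairpins lie close together, with miR-654 between miR-376c and miR-376b. Their precursors are known targets of adenosine-to-inosine editing in the brain. miR-376b-3p had the largest log2 fold change of the members, 3.78 ± 0.84 (edgeR adjusted p 0.0187). It stood at 47.9, 24.8, 105, 22.5 and 2.99 CPM in PiZ and at 0.715, 4.70, 1.12, 2.88 and 4.02 CPM in WT mice. The lowest of PiZ mice 1 to 4 was well above the highest WT mouse, and PiZ mouse 5 was within the WT range. miR-376c-3p stood at 7.78, 5.91, 16.6, 4.17 and 0.957 CPM in PiZ and at 0, 1.57, 0, 0.606 and 0.868 CPM in WT mice. It differed by 3.34 ± 0.84 (edgeR adjusted p 0.0318), and its 0 values came from WT mice 1 and 3, the shallowest libraries. miR-376a-3p, 3 bases from miR-376b-3p, was too sparse to test, with 50 reads in all PiZ and 3 in all WT mice.

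miR-300-3p and miR-381-3p share all but 3 bases and both rose, at different levels. miR-381-3p, the second most abundant member, stood at 155, 129, 279.8, 94.2 and 17.9 CPM in PiZ and at 27.2, 26.1, 25.8, 22.3 and 18.2 CPM in WT mice. Its log2 fold change was 2.56 ± 0.56 (edgeR adjusted p 0.0187). PiZ mouse 5 was lower than every WT mouse, and the other PiZ mice were higher than all of them. miR-300-3p stood at 28.6, 14.97, 53.5, 15.2 and 5.26 CPM in PiZ and at 0.715, 1.57, 5.601, 6.06 and 4.67 CPM in WT mice. It differed by 2.54 ± 0.64 (edgeR adjusted p 0.0318).

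miR-410-3p, the last of the cluster, stood at 68.3, 48.5, 129.8, 55.6 and 12.3 CPM in PiZ and at 12.9, 10.4, 14.6, 8.94 and 13.3 CPM in WT mice. It differed by 2.39 ± 0.52 (edgeR adjusted p 0.0187), with PiZ mouse 5 inside the WT range. miR-299a-3p stood at 4.502, 4.73, 5.61, 2.57 and 0.837 CPM in PiZ and at 0.715, 1.04, 1.68, 0.758 and 0.868 CPM in WT mice. Its log2 fold change of 1.90 ± 0.52 (edgeR adjusted p 0.0417) was the smallest of the 10 that rose. miR-485-5p stood at 0.409, 2.36, 3.50, 2.40 and 0.478 CPM in PiZ and at 0.715, 0, 0, 0.152 and 0.109 CPM in WT mice. It rested on 73 PiZ reads and 3 WT reads, a ratio of 14.7 after scaling each group's total by its depth (95% exact counting interval 4.84 to 73.0), with an edgeR adjusted p of 0.0335. The interval covers counting error only, not the spread between mice. For miR-485-5p, PiZ mice 1 and 5 were both below WT mouse 1, where a single read was worth 0.715 CPM.

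Among the members that did not pass were 2 of the 6 most abundant. miR-541-5p stood at 89.6, 62.7, 219, 54.2 and 4.19 CPM in PiZ and at 20.02, 12.5, 14.0, 10.6 and 16.2 CPM in WT mice. It was 2.55 ± 0.76 higher on the log2 scale (edgeR adjusted p 0.0632), and PiZ mouse 5 was lower than every WT mouse. miR-409-3p stood at 25.4, 22.5, 66.6, 23.1 and 1.55 CPM in PiZ and at 12.2, 3.65, 3.36, 5.91 and 7.16 CPM in WT mice. Its difference was 2.09 ± 0.75 (edgeR adjusted p 0.117), again with PiZ mouse 5 below all WT mice.

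miR-154-5p had the smallest log2 fold change of the tested members, 1.37 ± 0.68 (edgeR adjusted p 0.228). It stood at 6.14, 2.76, 19.1, 6.12 and 1.44 CPM in PiZ and at 4.29, 2.09, 2.80, 2.58 and 2.06 CPM in WT mice. PiZ mouse 3 stood alone at the top, PiZ mouse 2 lay inside the WT range and PiZ mouse 5 below it. The 3p arm of the hairpin, miR-154-3p, was not tested. It had 72 reads in PiZ and 1 read in WT mice, a depth-scaled ratio of 43.5 (95% exact counting interval 7.57 to 1742). Of the 72 reads, 38 came from PiZ mouse 3 and 0 from PiZ mouse 5, and the interval covers counting error only. The 5p arm held 80.3% of miR-154 reads in PiZ and 98.1% in WT mice, a difference that rests on 1 WT read and was not tested.

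The remaining tested members, miR-667-3p, miR-382-5p, miR-134-5p and miR-369-3p, had mean levels between 2.06 CPM (miR-382-5p) and 4.07 CPM (miR-369-3p) over all 10 mice. miR-134-5p is known from neurons, where it limits the size of dendritic spines. The log2 fold changes of these 4 lay between 2.29 (miR-134-5p) and 2.63 (miR-369-3p), with edgeR adjusted p between 0.0698 and 0.118. WT mouse 3 had no read of 3 of them, miR-667-3p, miR-382-5p and miR-369-3p.

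**Figure D4:**
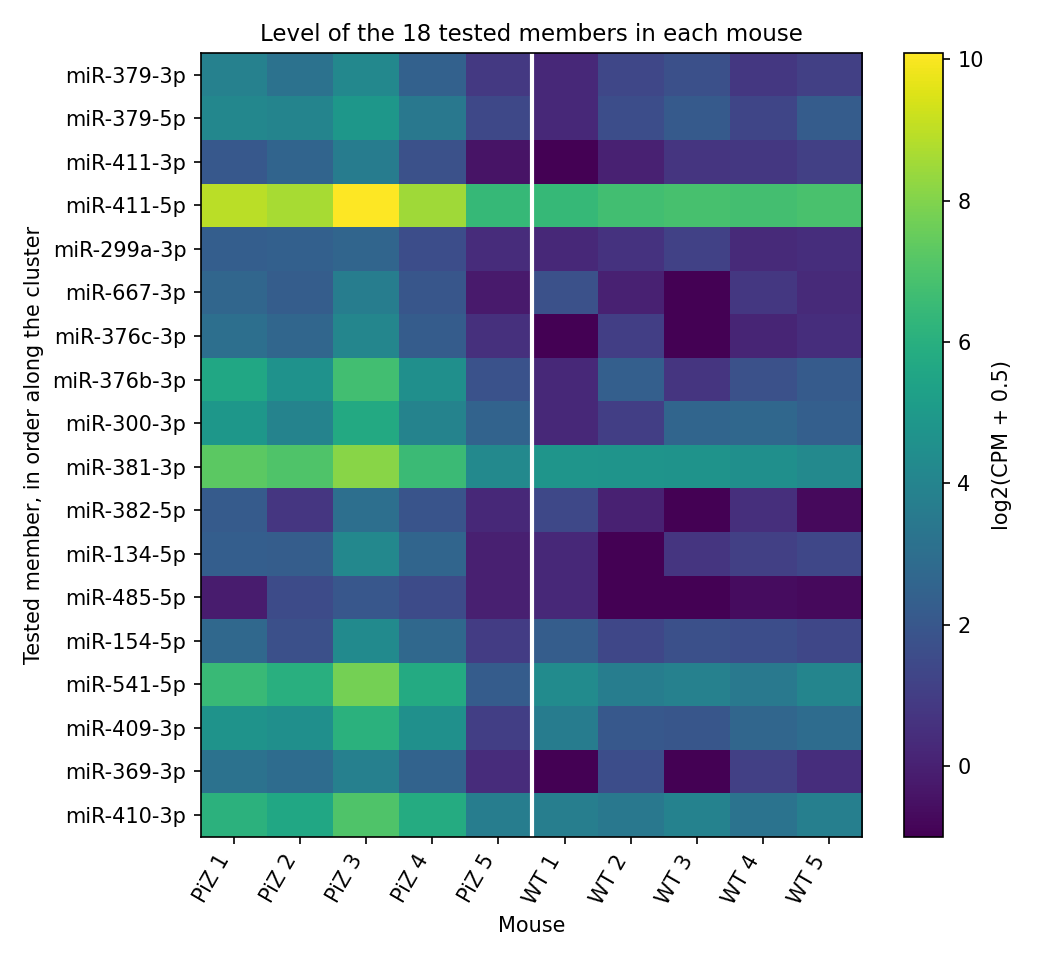
Level of the 18 tested members in each mouse as log2(CPM + 0.5), in order along the cluster, PiZ mice left and WT mice right of the white line. The column of PiZ mouse 3 is the brightest in all 18 rows, and the column of PiZ mouse 5 resembles the WT columns, with 14 of its 18 values inside the WT range.

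The highest and the lowest PiZ mouse were nearly the same for every tested member, while PiZ mice 1, 2 and 4 changed places. PiZ mouse 3 was the highest of all 10 mice for all 18 tested members, and PiZ mouse 5 was the lowest PiZ mouse for 17. PiZ mice 1, 2 and 4 were above every WT mouse for 17, 16 and 18 members. PiZ mouse 5 was above every WT mouse for 0 members, inside the WT range for 14 and below it for 4. Members of 1 library share its depth and scaling, so these counts are not independent of each other. Of the 18 members, 9 also entered the test through PiZ mice and were bound to be higher there. The counts are therefore a description only.

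The 34 members too sparse to test were, when summed, also higher in 4 of 5 PiZ livers than in any WT liver. Together they had 910 reads in PiZ and 101 in WT mice, with between 1 and 73 reads each over all mice. Their summed level was 25.8, 23.2, 52.1, 21.5 and 3.11 CPM in PiZ and 7.87, 4.70, 3.36, 3.94 and 5.32 CPM in WT mice. The means were 25.1 ± 17.5 and 5.04 ± 1.75 CPM (SD, n = 5), a ratio of 4.99. PiZ mouse 3 was again the highest of all mice and PiZ mouse 5 the lowest. No WT read was seen for 6 of the 34, and no PiZ read for 1, miR-541-3p. miR-487b-3p had 68 PiZ and 2 WT reads, a depth-scaled ratio of 20.6 (95% exact counting interval 5.47 to 173). miR-376b-5p had 46 and 1, a depth-scaled ratio of 27.8 (4.75 to 1122). These intervals cover counting error only, not the spread between mice. Such ratios were worked out only for members with 1 to 3 WT reads and 24 or more PiZ reads, so high values were built in. The same holds for the ratios of miR-485-5p and miR-154-3p above. miR-541-3p, with 0 PiZ and 3 WT reads, was left out by this choice. Lower ratios were found for the other sparse members it kept, with 2 or 3 WT reads. They were 5.84 (miR-409-5p), 7.25 (miR-494-3p), 10.1 (miR-376a-3p), 10.9 (miR-495-3p) and 14.5 (miR-377-5p). The 13 members listed in only part of the files had 10 reads in all.

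The 6 most abundant members, miR-411-5p, miR-381-3p, miR-541-5p, miR-410-3p, miR-376b-3p and miR-409-3p, held 86.8% to 89.2% of the cluster's reads in every mouse, while the shares of single members differed between mice. miR-411-5p alone held 48.9%, 50.5%, 50.7%, 51.8% and 60.3% in PiZ and 47.4%, 58.0%, 58.7%, 59.0% and 58.3% in WT mice. PiZ mouse 5 had the highest share of this member (95% Wilson interval 57.5% to 63.0%). WT mouse 1 had the lowest, with the widest interval (41.3% to 53.6%) because it held 251 cluster reads. miR-376b-3p held 4.73%, 3.17%, 4.88%, 3.22% and 2.08% in PiZ and 0.398%, 2.56%, 0.570%, 1.58% and 1.99% in WT mice. For this share PiZ mouse 5 lay within the WT range. miR-541-5p held 2.91% in PiZ mouse 5 (95% Wilson interval 2.10% to 4.02%) and between 5.83% and 11.2% in the other 9 mice.

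**Figure D5:**
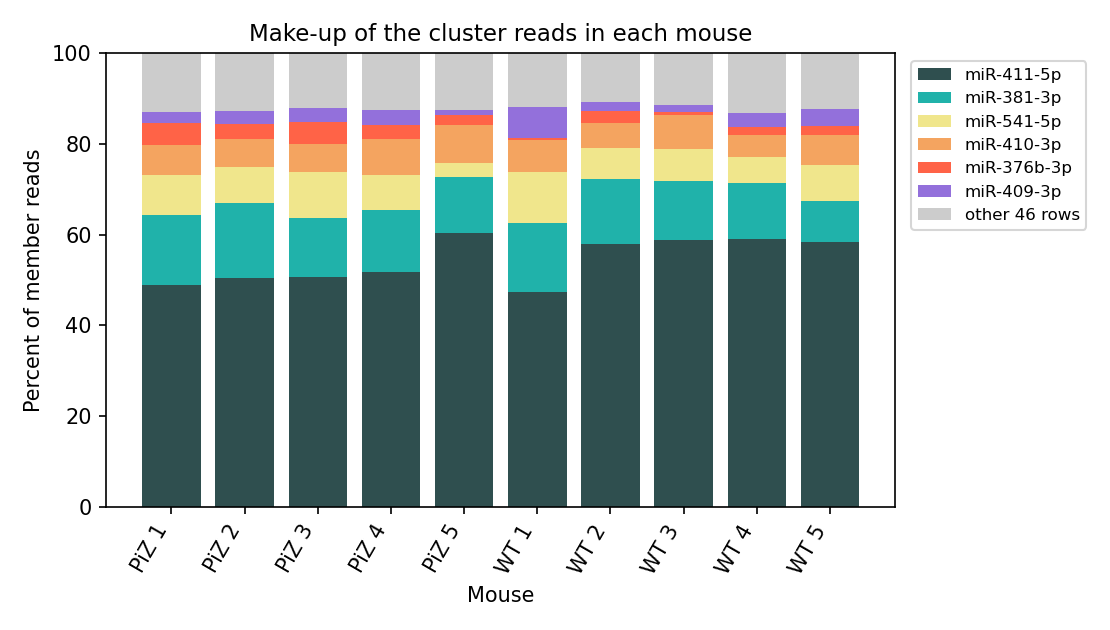
Percent of the cluster's reads held by each of the 6 most abundant members and by the other 46 members, 1 bar per mouse. The 6 together hold 86.8% to 89.2% in every mouse, with miR-411-5p between 47.4% and 60.3%.

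Position in the cluster and arm were set beside the fold changes. The 10 tested members that lie before Mirg had log2 fold changes of 1.90 to 3.78 with a median of 2.45, and 8 of them rose. The 8 that lie within Mirg had changes of 1.37 to 3.52 with a median of 2.45, and 2 of them rose. Of the members on the 3p arm, 7 of 11 rose, and of those on the 5p arm 3 of 7. The medians of both stretches were alike, and the difference in the counts was not tested. Of all 336 tested miRNAs, 28 rose (8.33%). Both stretches and both arms hold members that passed the filter only through PiZ mice. Among those that rose, these were miR-379-3p, miR-299a-3p, miR-376c-3p and miR-485-5p, so the counts are a description only.

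Other miRNAs of the same imprinted region, which lie outside the stretch from miR-379 to miR-410, gave the same signs. Of 15 listed in every file 5 were tested, all 5 with a positive log2 fold change and an unadjusted p under 0.05, with a median of 2.17. In edgeR, 2 of them rose, miR-434-3p and miR-136-3p. By the filter's level of 2.09 CPM, miR-136-3p, miR-136-5p and miR-431-5p entered through PiZ mice and were bound to be higher there. In WT mice they stood at most at 1.52, 1.21 and, outside WT mouse 1, 0.977 CPM. The signs and the median over all 5 are therefore a description only. miR-127-3p, which lies antisense to the imprinted gene Rtl1, was the most abundant of the 5. It stood at 794, 555, 1607, 554 and 172 CPM in PiZ and at 401, 204, 399, 184 and 171 CPM in WT mice and did not pass (1.57 ± 0.54, edgeR adjusted p 0.109). miR-434-3p stood at 189, 236, 442, 145 and 48.0 CPM in PiZ and at 77.9, 51.7, 57.1, 66.2 and 58.0 CPM in WT mice (1.77 ± 0.48, edgeR adjusted p 0.0403). For both, PiZ mouse 3 was the highest mouse and PiZ mouse 5 the lowest PiZ mouse. The 313 tested miRNAs outside the region had a median log2 fold change of -0.002, and 16 of them rose.

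Marker miRNAs of other cell types and tissues were read in the same libraries. Hepatocyte markers (5 of 5 listed) summed to between 122230 and 250562 CPM in PiZ and between 62803 and 238971 CPM in WT mice, most of it miR-192-5p, and 0 passed in edgeR. miR-122-5p, the best known hepatocyte miRNA, was lower in all 5 PiZ mice than in any WT mouse, at 9512 ± 1726 and 13013 ± 1133 CPM (SD, n = 5), and did not pass (log2 fold change -0.48, edgeR adjusted p 0.119). The rest of the hepatocyte list was mixed in sign. The log2 fold change was -0.46 for miR-194-5p, 1.34 for miR-802-5p, 0.10 for miR-192-5p and 0.05 for miR-122-3p. Mesenchymal and stellate markers (5 listed) summed to 9875 to 14783 CPM in PiZ and 5771 to 16858 CPM in WT mice, endothelial markers (2 listed) to 23357 to 28800 and 7897 to 41279 CPM, and erythroid markers (4 listed) to 311 to 1751 and 259 to 1079 CPM, with PiZ mouse 3 the highest of all. Immune markers (6 listed) summed to 1895 to 3035 CPM in PiZ and 912 to 2171 CPM in WT mice, and PiZ mouse 2 was the only PiZ mouse inside the WT range. None of these passed in edgeR (0). The immune list was mixed in sign. miR-223-3p was above every WT mouse in all 5 PiZ mice (log2 fold change 0.77, edgeR adjusted p 0.0632). The log2 fold change was 0.96 for miR-142-3p, 1.03 for miR-142-5p and 0.41 for miR-150-5p. It was -0.06 for miR-155-5p and -0.13 for miR-146a-5p.

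As sums, biliary-epithelial, neural and pancreas markers had PiZ mice 1 to 4 above every WT mouse, as the cluster did. Biliary-epithelial markers (5 of 5 listed) summed to 300.0, 291, 315, 298 and 178 CPM in PiZ and to 242, 235, 280.0, 189 and 207 CPM in WT mice. PiZ mouse 3 was the highest and PiZ mouse 5 lay below every WT mouse, and 0 of the 5 passed in edgeR. Within this list, miR-200a-3p and miR-141-3p were above every WT mouse in all 5 PiZ mice, with log2 fold changes of 0.62 and 0.60 (edgeR adjusted p 0.109 and 0.113). miR-200b-3p, miR-200c-3p and miR-429-3p overlapped the WT mice, with log2 fold changes of 0.08, 0.18 and 0.49 (edgeR adjusted p 0.891, 0.767 and 0.205).

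Neural markers (5 of 5 listed) summed to 76.9, 71.7, 93.5, 160.1 and 42.3 CPM in PiZ and to 52.9, 48.5, 43.1, 57.7 and 62.7 CPM in WT mice, again with PiZ mouse 5 below every WT mouse. Of the 2 that could be tested, 0 passed in edgeR. miR-128-3p, the largest part of the sum outside PiZ mouse 4, stood at 71.6, 65.8, 78.1, 65.3 and 33.4 CPM in PiZ and at 46.5, 43.3, 38.6, 54.1 and 55.7 CPM in WT mice. The more neuron-restricted miR-124-3p was at 0 in PiZ mice 1, 2 and 3, at 6.66 CPM in PiZ mouse 4 and at most at 0.303 CPM elsewhere. miR-9-5p stood at 0.409, 0, 2.20, 59.5 and 1.79 CPM in PiZ and at most at 1.09 CPM in WT mice, and miR-138-5p at 4.91, 5.91, 13.2, 28.5 and 7.06 CPM in PiZ and at most at 6.44 CPM in WT mice. PiZ mouse 4 was the highest mouse for miR-9-5p, miR-124-3p and miR-138-5p. Muscle markers (3 listed) summed to 67.3 CPM in PiZ mouse 4 and to at most 2.46 CPM in the other 9 mice.

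Pancreas markers summed to 24.1, 46.1, 80.9, 26.6 and 12.2 CPM in PiZ and to 17.2, 5.74, 8.40, 12.3 and 10.5 CPM in WT mice. In edgeR 2 of the 4 rose (miR-217-5p, miR-216b-5p), beside 28 of all 336 tested miRNAs (8.33%). Both stood at most at 0.152 CPM in WT mice, below the filter's level of 2.09 CPM. They therefore entered through PiZ mice and were bound to be higher there. PiZ mouse 3 had the highest sum and PiZ mouse 5 the lowest of the PiZ mice. miR-216b-5p, known from the exocrine pancreas, stood at 13.1, 21.7, 43.2, 10.3 and 1.32 CPM in PiZ and at 0, 0, 0, 0.152 and 0 CPM in WT mice. miR-375-3p, the main islet miRNA of the list, had a log2 fold change of -0.08 (edgeR adjusted p 0.932). The part of the biliary-epithelial, neural, muscle, pancreas, immune and hepatocyte markers in the cluster's result was not tested. PiZ mouse 4 also had the highest level of 5 sparse members, among them miR-323-3p with 32 of its reads and miR-487b-3p with 41. Without PiZ mouse 4 the ratio of the summed cluster level was 5.41.

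Both file sets gave the same direction. As 9 of the 18 members entered the test through PiZ mice, counts and medians over all 18 are a description only. With the longer list alone (2 PiZ and 3 WT mice) 8 members rose in edgeR, beside 23 of all 336 tested miRNAs (6.85%), with a median log2 fold change of 2.46 over the members. With the shorter list alone (3 PiZ and 2 WT mice), which holds PiZ mouse 5, edgeR passed 0 members, beside 0 of all 336 (0%), with 1 member at an unadjusted p under 0.05 and a median of 2.48. miR-411-5p differed by 2.12 in the first (edgeR adjusted p 0.00704) and by 2.24 in the second (edgeR adjusted p 0.347). The 2 runs of a library also gave like sums, within a factor of 1.08 in 9 mice. WT mouse 2 had 201 cluster reads per 1000000 in the first run and 122 in the second, from 261 and 91 reads.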

How the data were processed

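Small RNA of 10 mouse livers was sequenced from libraries made with a TruSeq small RNA kit, per the labels' protocols, in 2 technical runs each. The deposited files hold estimated counts per mature miRNA for each run, which are raw and need not be whole. The submitters' processing notes name CASAVA. The sources used here do not name an aligner, a miRBase release or a genome build, nor how reads matching several miRNAs were counted.

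Runs were summed per mouse and rounded, and mice were numbered in deposit order. The 880 miRNAs listed in every file, which held at least 99.999% of each library's reads, were filtered with filterByExpr (336 kept), scaled by TMM and tested in edgeR 4.0.16 (quasi-likelihood test with genotype and file set as terms, p-values adjusted by Benjamini-Hochberg, threshold 0.05). The standard error printed is the log2 fold change over the root of F. CPM were computed from the deposited counts. Arm balance was tested in limma 3.58.1 on log2((5p + 0.5)/(3p + 0.5)) for hairpins with a mean of 20 reads or more in each arm. The scripts were tested on simulated data. Alternatives used DESeq2 1.42.0 and limma-voom in R 4.3.3, intervals scipy 1.17.1 and plots matplotlib 3.10.9.

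Named with values in every mouse are the members past the threshold, the 6 most abundant, the one with the smallest change and hairpins with both arms tested. miR-154-3p, miR-376a-3p, miR-376b-5p, miR-487b-3p, miR-541-3p, miR-323-3p, miR-134-5p, miR-667-3p, miR-382-5p, miR-369-3p and the single marker miRNAs were named after their values were seen. So were miR-377-5p, miR-409-5p, miR-494-3p, miR-495-3p, miR-136-3p, miR-136-5p and miR-431-5p. The members and lists were chosen with earlier results of these data known. The labels do not say how mice were housed or collected, so p-values measure only the spread between these mice.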

Additional observations from a re-analysis of the deposited data

Results flagged for a closer look

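In 30 groups of 5 mice (the PiZ or the WT values of a member given for every mouse, or of a summed level) the gap between the most extreme mouse and its nearest neighbour was divided by the group's range. A ratio above 0.71 sets a mouse apart, which chance does for about 1 group in 20, so 1.5 groups were expected and 2 were found. miR-485-5p was higher in WT mouse 1 than in the other WT mice, with a ratio of 0.788. Its level there, 0.715 CPM, is that of a single read. miR-154-5p was higher in PiZ mouse 3, at 19.1 CPM, than in the other PiZ mice, with a ratio of 0.734.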

How the results depend on the processing

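With all mice and the chosen settings 10 members passed. Other scalings gave 8 or 9, fractional sums 10, DESeq2 14 and a model without the file set 12. No filter gave 17 of the 18, at least 5 CPM in 5 mice 0 of 6, limma-voom 0 (12 at an unadjusted p under 0.05), run 1 alone 4, WT mice 1 and 3 left out 0 (15 unadjusted) and the shorter list alone 0. Leaving out 1 mouse gave 0 to 17. Added after seeing the data, PiZ mouse 5 and WT mice 1 and 3 left out gave 18, and PiZ mouse 5 left out with the filter rebuilt 14 of 15. Over all miRNAs 28 rose, 71 with no filter, 2 at the stricter filter, 5 in limma-voom, 16 in run 1 and 1 without WT mice 1 and 3. The causes were not tested. The number over all miRNAs is not given here for the other scalings, fractional sums, DESeq2, the model without the file set or the rebuilt filter. The counts of members in those settings are therefore a description only. Tested miRNAs were held at the 336 when mice or terms changed. Upper-quartile scaling moved the median of all miRNAs by -0.16 and that of the members by -0.16. The ratio of summed CPM was 3.50 to 6.15. Arm balance passed for 0 member hairpins throughout, except 1 with a pseudocount of 5. No paired analysis was possible because the replicate numbers in the labels count runs of 1 library and the genotypes share no animal. Members of a few CPM rest on few reads in WT mice 1 to 3.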

Other observations

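With no filter on low counts, the 34 sparse members entered the edgeR test, among 852 miRNAs. Of these 34, 32 had a positive log2 fold change, 9 were higher in PiZ past the adjusted threshold and 0 were lower. Of all 852 miRNAs, 71 were higher in this setting. The 34 rested on 910 PiZ and 101 WT reads in all.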
